A study of Mus musculus with 6 samples.

Results

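A set of 10 enzymes of xenobiotic and glutathione metabolism was followed in basal cells of the mouse prostate. They were chosen by symbol: Cyp2f2, the glutathione transferases Gsta3, Gsta4, Gsto1, Gstm1, Gstm2 and Gstp1, the glutathione peroxidases Gpx1 and Gpx2, and the quinone reductase Nqo1. All 10 were found among the 25273 genes to which a deposited transcript could be matched, and all 10 passed the filter of a mean of 1 FPKM that left 10255 genes for the test. FPKM divides the fragments of a transcript by its length in kilobases and by the library's fragments.

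Proximal basal cells, sorted from the ducts near the urethra, were set against distal basal cells, sorted from the ducts toward the gland tips. Both groups came from C57BL/6 mice aged 8 to 12 weeks, with no allele or agent named, and each comprised 3 RNA sequencing libraries. The labels name neither the antibodies of the sort nor the animals behind a library, and they do not say whether the basal cells were cultured. The p-values therefore measure only how far these libraries spread, and that spread may be technical. The deposited intervals implied between 21600000 and 27700000 fragments per library.

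Cytochrome P450 enzymes of the CYP2F kind oxidise small lipophilic compounds, and in the mouse Cyp2f2 is best known from the club cells of the airway, where it activates naphthalene. Glutathione transferases join reactive compounds to the tripeptide glutathione, and glutathione peroxidases use glutathione to reduce hydrogen peroxide and lipid peroxides. Many genes of this defence carry antioxidant response elements, to which the transcription factor NRF2 binds when its inhibitor KEAP1 is disabled.

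The sequences upstream of called members are shown so that the higher genes can be set beside Gsta3, the lower one. RefSeq windows on GRCm38.p6 matched 9 of the 10 members, all but Gsta4, and each line gives the 250 bases before the start used there, 5′ to 3′. That start can differ from the gene spans given below. The Cyp2f2 window ends at 27119954, inside the span that begins at 27119909. Capitals mark the antioxidant response element core TGACNNNGC, the AP-1 motif TGANTCA and the xenobiotic response element core GCGTG. The TATA box TATAAA was searched but is not marked, and each motif was searched on both strands.
Cyp2f2 (chr7:27119705-27119954, plus strand): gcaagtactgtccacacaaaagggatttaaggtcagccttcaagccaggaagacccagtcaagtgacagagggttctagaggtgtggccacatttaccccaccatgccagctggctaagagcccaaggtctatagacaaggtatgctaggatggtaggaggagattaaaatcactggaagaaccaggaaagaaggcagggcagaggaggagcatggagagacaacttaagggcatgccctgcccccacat
Gsto1 (chr19:47854723-47854972, plus strand): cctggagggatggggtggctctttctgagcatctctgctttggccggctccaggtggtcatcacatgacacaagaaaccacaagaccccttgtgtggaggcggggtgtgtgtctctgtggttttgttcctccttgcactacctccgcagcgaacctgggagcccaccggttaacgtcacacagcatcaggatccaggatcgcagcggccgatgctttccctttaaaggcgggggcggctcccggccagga
Gpx2 (chr12:76795555-76795804, minus strand): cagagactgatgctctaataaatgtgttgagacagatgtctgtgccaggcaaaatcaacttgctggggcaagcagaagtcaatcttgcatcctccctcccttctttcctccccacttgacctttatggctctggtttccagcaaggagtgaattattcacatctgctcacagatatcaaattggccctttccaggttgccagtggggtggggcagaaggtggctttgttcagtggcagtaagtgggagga
Gsta3 (chr1:21240335-21240584, plus strand): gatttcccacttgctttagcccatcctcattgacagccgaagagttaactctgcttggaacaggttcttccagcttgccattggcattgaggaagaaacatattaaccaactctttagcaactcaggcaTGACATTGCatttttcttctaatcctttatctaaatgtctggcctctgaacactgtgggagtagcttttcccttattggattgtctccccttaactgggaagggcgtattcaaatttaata

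None of these 4 motifs lay in the windows of Cyp2f2, Gsto1 and Gpx2, whereas the window of Gsta3 held 1 antioxidant response element core, which begins 121 bases before the start. Gstp1, which did not pass the test, held the AP-1 motif 74 bases before its start. The GCGTG core lay in the windows of 3 members, Gstm1, Gstp1 and Gpx1, and TATAAA lay in those of 2, Gstm1 and Nqo1. Of 32851 windows of the same length, 10.2% held the antioxidant response element core, 6.75% the AP-1 motif, 28.2% the GCGTG core and 12.4% TATAAA. A match is a run of letters and not a shown site.

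**Figure D1:**
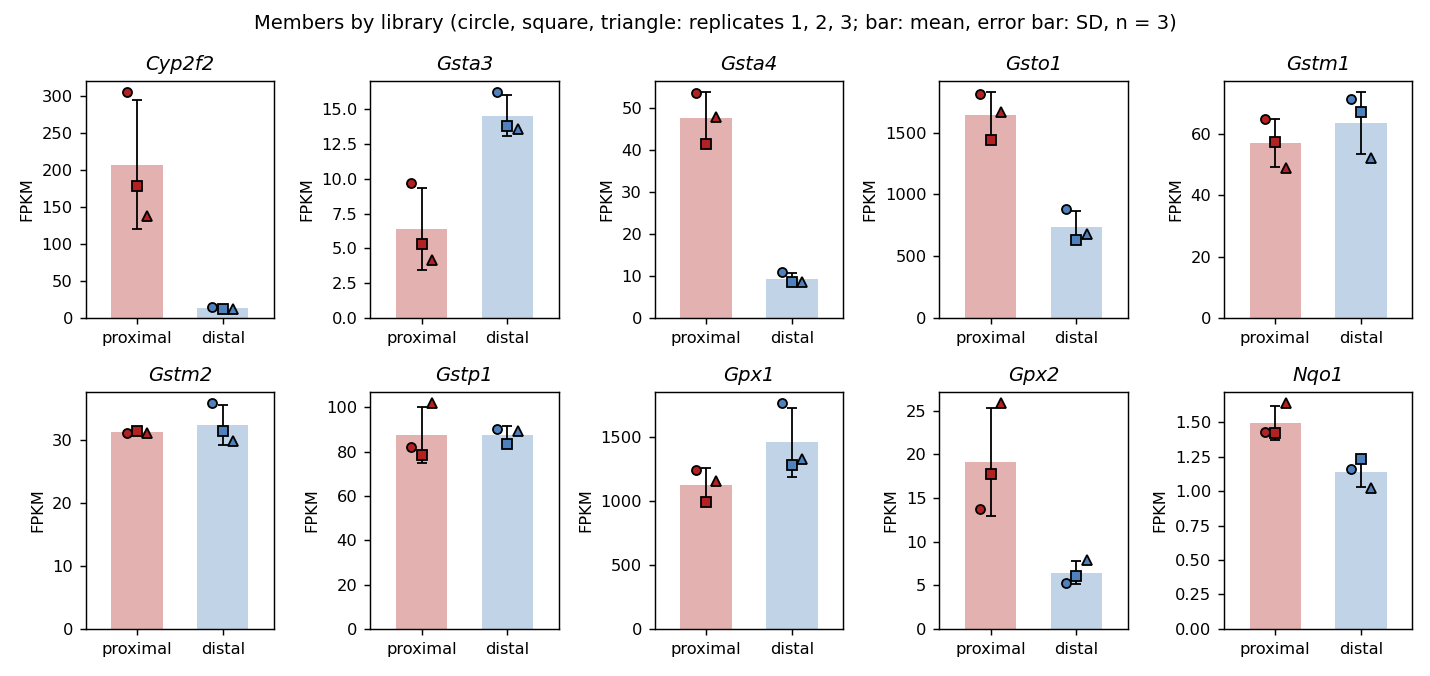
FPKM of the 10 members in each library, with proximal basal cells at the left and distal basal cells at the right of each panel; symbols are replicates, bars are means and error bars are SD (n = 3). The proximal libraries of Cyp2f2, Gsta4, Gsto1 and Gpx2 all lay above the distal ones, and those of Gsta3 lay below.

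Of the 10 members, 4 were higher and 1 was lower in proximal basal cells, and 5 missed the threshold (limma on log2(FPKM + 1), Benjamini-Hochberg adjusted p under 0.05 over all genes tested). Cyp2f2, Gsta4, Gpx2 and Gsto1 rose and Gsta3 fell. Over all genes tested, 7.02% were called, 4.52% as higher and 2.50% as lower. The values of proximal and distal libraries did not overlap for 7 of the 10 members, against 28.8% of all genes tested. Adding 1 FPKM before taking logs makes each log2 fold change of a low gene too small. The members were listed with earlier results of these data known, so their share is a description. Across all genes, 464 were higher and 256 lower, and 630 were higher and 215 lower with each library rescaled to a sum of 1000000. That rescaling raises the values against the pseudocount and the filter, and 11789 genes were then tested.

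Because FPKM is per length, the levels of different genes can be set side by side. In proximal cells the order of the means was Gsto1, Gpx1, Cyp2f2, Gstp1, Gstm1, Gsta4, Gstm2, Gpx2, Gsta3 and Nqo1, and Gstm1 and Gsta4 were the neighbours whose libraries overlapped. In distal cells it was Gpx1, Gsto1, Gstp1, Gstm1, Gstm2, Gsta3, Cyp2f2, Gsta4, Gpx2 and Nqo1, with overlap between Gsta3 and Cyp2f2. Gsto1 ranked 17 among all matched genes by mean FPKM in proximal cells and 58 in distal cells. Gpx1 ranked 30 in proximal and 23 in distal cells, and Cyp2f2 ranked 289 in proximal and 3963 in distal cells.

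Cyp2f2, the P450 enzyme of the group, showed the widest difference of the 10. It stood at 305, 179 and 138 FPKM in the proximal libraries and at 15.2, 12.4 and 11.8 FPKM in the distal libraries. The lowest proximal library was 9.10 times the highest distal library, and within the proximal group the libraries spread 2.21-fold. The means were 207 ± 87.1 FPKM in proximal basal cells against 13.1 ± 1.81 in distal basal cells (SD, n = 3), a ratio of 15.8. The log2 fold change of FPKM + 1 was 3.81 ± 0.26 (± SE; limma adjusted p = 0.000256), with a 95% interval of the fold from 9.21 to 21.4. Cyp2f2 lies on chromosome 7 (27119909 to 27133660, mm10, plus strand) and was measured by 1 transcript. An annotated antisense gene, Gm15883, overlaps it and shares 10.0% of its 50-base words. No deposited transcript was matched to Gm15883, and without a stated strand its reads could not be told from those of Cyp2f2.

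Cyp2f2 is also used as a marker of proximal luminal progenitor cells, so the other markers of that list were read beside it. Of 15 others, 14 were tested and 8 of them were higher, with none lower, and none was listed at 0 in all libraries. Of all genes tested, 4.52% were higher and 2.50% lower. The summed level of the 15 markers was 2125, 2016 and 2221 FPKM in the proximal and 1254, 1199 and 1271 FPKM in the distal libraries. The most abundant of them, Ly6a, a surface antigen of progenitor cells, was at 567, 504 and 582 FPKM in the proximal and 456, 401 and 400 FPKM in the distal libraries (limma adjusted p = 0.0882). It did not pass, although the groups did not overlap. Psca, a surface antigen of that list, stood at 80.0, 51.9 and 60.6 FPKM in the proximal and at 1.46, 0.678 and 0.480 FPKM in the distal libraries. Nupr1, a stress-induced nuclear protein, was at 71.4, 33.9 and 33.8 FPKM in the proximal and 5.92, 2.18 and 4.81 FPKM in the distal libraries. Like Cyp2f2, both were highest in proximal replicate 1. The part of luminal cells in the difference of Cyp2f2 was not tested, and more cells of a type and more RNA per cell cannot be told apart in bulk samples.

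The 5 protein-coding genes whose log2(FPKM + 1) followed Cyp2f2 most closely over the 6 libraries were Ckmt1, Ifit1, Krt4, Prss23 and Grp. Their Pearson r ran from 0.997 to 0.999. The libraries fall into 2 groups that differ in all of these genes, so r reflects that difference, and it is given as a description. Ckmt1, a mitochondrial creatine kinase, stood at 6.93, 4.69 and 3.60 FPKM in the proximal and at 0.329, 0.105 and 0.122 FPKM in the distal libraries. Krt4, a keratin of stratified mucosa, was at 23.6, 16.5 and 14.5 FPKM in the proximal and 1.64, 1.19 and 1.55 FPKM in the distal libraries. Proximal replicate 1 was the highest for both, which follows from their choice by r with Cyp2f2. Among the other members, r with Cyp2f2 was 0.990 for Gsta4, 0.969 for Gsto1, 0.845 for Gpx2 and 0.842 for Nqo1, which did not pass, and it was -0.766 for Gsta3 and -0.644 for Gpx1. For Gstm1, Gstm2 and Gstp1 it lay between -0.250 and -0.142.

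**Figure D2:**
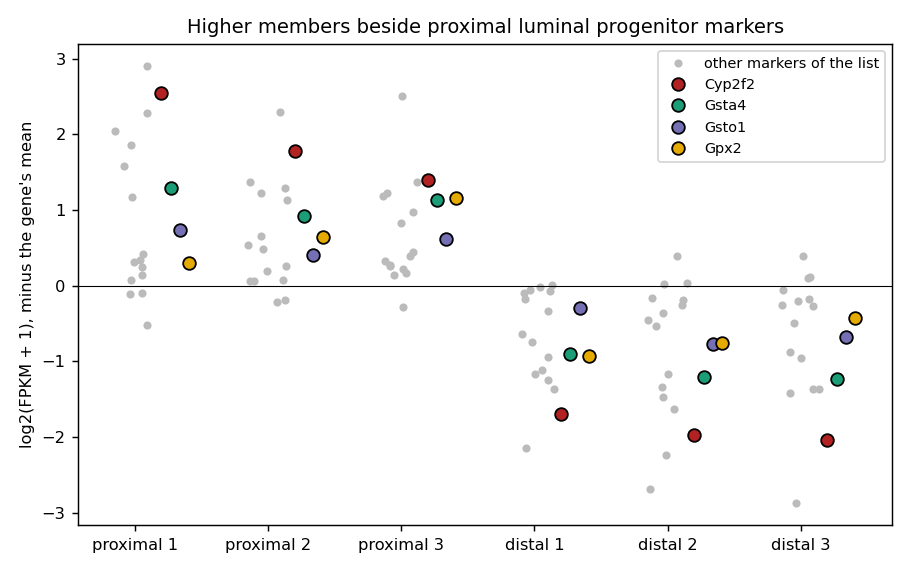
Level of each gene in each library as log2(FPKM + 1) minus the gene's mean over the 6 libraries, with proximal libraries at the left; coloured points are the 4 higher members and grey points are the other 15 markers of proximal luminal progenitors. Cyp2f2 was highest in proximal replicate 1, whereas Gpx2 was highest in proximal replicate 3.

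The alpha class of glutathione transferases, cytosolic enzymes that take lipid peroxidation products among their substrates, held members that moved in opposite directions. Gsta4, which acts on the lipid aldehyde 4-hydroxynonenal, was at 53.7, 41.5 and 48.0 FPKM in the proximal and at 11, 8.67 and 8.52 FPKM in the distal libraries. Its lowest proximal library was 3.78 times its highest distal library. The means were 47.8 ± 6.10 FPKM in proximal basal cells against 9.39 ± 1.37 in distal basal cells (SD, n = 3). On the log2 scale Gsta4 was higher by 2.23 ± 0.14 (± SE; limma adjusted p = 0.000148). Gsta4 lies on chromosome 9 (78182774 to 78209349, mm10) and shared no 50-base word with another annotated gene.

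Gsta3, which in the mouse conjugates aflatoxin epoxide, was at 9.70, 5.35 and 4.16 FPKM in the proximal and at 16.2, 13.8 and 13.6 FPKM in the distal libraries. The groups did not overlap, and proximal replicate 1 lay nearest the distal libraries. The log2 fold change was -1.13 ± 0.25 (± SE; limma adjusted p = 0.0356), and the mean was 2.27 times as high in distal cells. The call was lost without proximal replicate 2 or 3 or without distal replicate 1, 2 or 3 (adjusted p as high as 0.143), and with no filter on low values (adjusted p = 0.0838). Without proximal replicate 1 the adjusted p was 0.00324.

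The Gsta3 value is the sum of 3 deposited transcripts with the same span on chromosome 1. The 1375-base transcript was at 6.11, 4.77 and 4.16 FPKM in the proximal and at 13.1, 11.1 and 11.4 FPKM in the distal libraries. The 1470-base transcript was at 3.59, 0.576 and 0 FPKM in the proximal and at 3.12, 2.63 and 2.18 FPKM in the distal libraries. The shorter one was thus lower in each proximal library, whereas the longer one overlapped between the groups. The 1515-base transcript was listed at 0 in all 6 libraries. Gsta4 held 84.7%, 88.6% and 92.0% of the summed FPKM of Gsta3 and Gsta4 in the proximal and 40.4%, 38.7% and 38.5% in the distal libraries. The groups did not overlap in that share (exact permutation test, two-sided, p = 0.10, the smallest that 3 against 3 allows).

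Gsto1, of the omega class, reduces dehydroascorbate and methylated arsenic, and it was the most abundant transferase in every library. It stood at 1810, 1444 and 1669 FPKM in the proximal and at 886, 636 and 680 FPKM in the distal libraries, with no overlap. The means were 1641 ± 185 FPKM in proximal basal cells against 734 ± 134 in distal basal cells (SD, n = 3), a ratio of 2.24. Gsto1 was higher by 1.17 on the log2 scale, with an SE of 0.17 (limma adjusted p = 0.00672). The gene lies on chromosome 19 (47854970 to 47864790, mm10) and shared no 50-base word with another gene. A second deposited transcript of 230 bases at its end was listed at 0 in all 6 libraries. Gsto2, the other gene of the class, was at 2.46 ± 1.91 FPKM in proximal basal cells against 3.41 ± 0.306 in distal basal cells (SD, n = 3) and did not pass.

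Summed over the 25 matched transferase genes, transferase transcripts came to 2441, 1936 and 2198 FPKM in the proximal and to 1557, 1200 and 1226 FPKM in the distal libraries. Without Gsto1 the sum was 630, 492 and 529 FPKM in the proximal and 671, 564 and 546 FPKM in the distal libraries, and the groups overlapped. Gsto1 thus made up 74.9% ± 0.913 of the sum in proximal and 55.1% ± 1.99 in distal cells (SD, n = 3; exact permutation test, two-sided, p = 0.10, the smallest possible). The alpha class came to 54.8 ± 8.68 FPKM in proximal basal cells against 24.0 ± 2.76 in distal basal cells (SD, n = 3). The microsomal class, membrane-bound enzymes of another fold, came to 250 ± 52.8 FPKM in proximal basal cells against 311 ± 48.8 in distal basal cells (SD, n = 3).

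**Figure D3:**
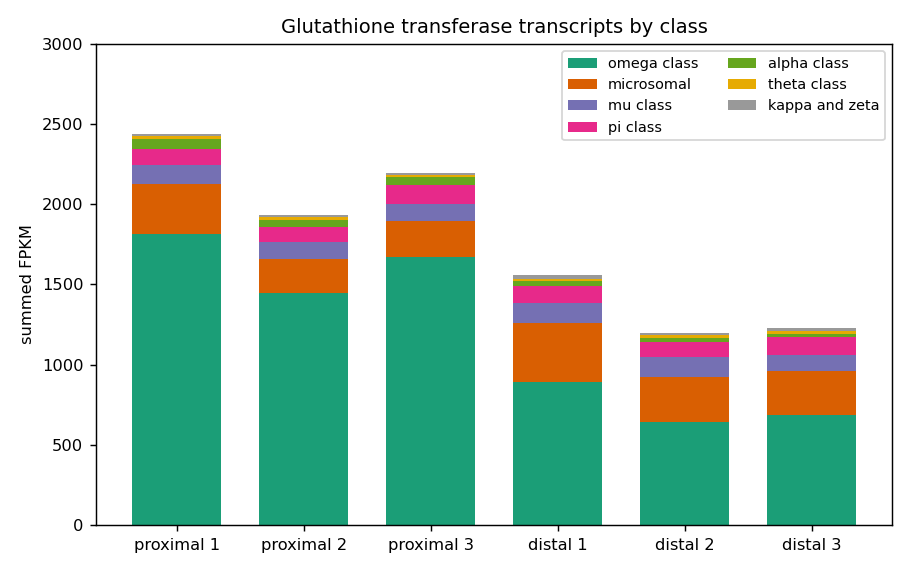
Summed FPKM of 25 glutathione transferase genes by class in each library, proximal at the left. The omega class fills most of each bar and its part is taller in the 3 proximal libraries, whereas the sum of the transferases other than Gsto1 overlapped between the groups.

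Transferases of the mu and pi classes showed no call. Gstm1 was at 64.6, 57.4 and 48.8 FPKM in the proximal and 71.1, 67.0 and 52.1 FPKM in the distal libraries. Gstm2 was at 31.2, 31.4 and 31.2 FPKM in the proximal and 35.9, 31.5 and 29.8 FPKM in the distal libraries. Gstp1, a pi-class enzyme known in human prostate for its loss in cancer, was at 82.1, 78.5 and 102 FPKM in the proximal and 90.2, 83.3 and 89.5 FPKM in the distal libraries. The groups overlapped for all 3 genes.

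The log2 fold changes were -0.15 for Gstm1, -0.05 for Gstm2 and -0.01 for Gstp1 (limma, adjusted p = 0.596, 0.824 and 0.974). The 95% intervals of the fold ran from 0.707 to 1.15 for Gstm1, from 0.820 to 1.14 for Gstm2 and from 0.818 to 1.21 for Gstp1. The signs of the log2 fold changes of Gstm2 and Gstp1 turned with each library rescaled to the same sum. The log2 fold change of Gstm1 was -0.09 on rescaling and ran from -0.28 without distal replicate 3 to -0.04 without proximal replicate 3, and it was -0.24 without proximal replicate 1 and -0.06 without distal replicate 1. These genes have near copies: 63.0% of the 50-base words of the Gstp1 transcript also lie in Gstp2, and 23.1% of those of Gstm1 and 9.36% of those of Gstm2 lie in other genes. How fragments were divided between such copies is uncertain. Summed over the class, the mu genes came to 110 ± 10.7 FPKM in proximal basal cells against 116 ± 14.2 in distal basal cells, and the pi genes to 103 ± 15.4 FPKM in proximal basal cells against 104 ± 5.12 in distal basal cells (SD, n = 3).

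**Figure D4:**
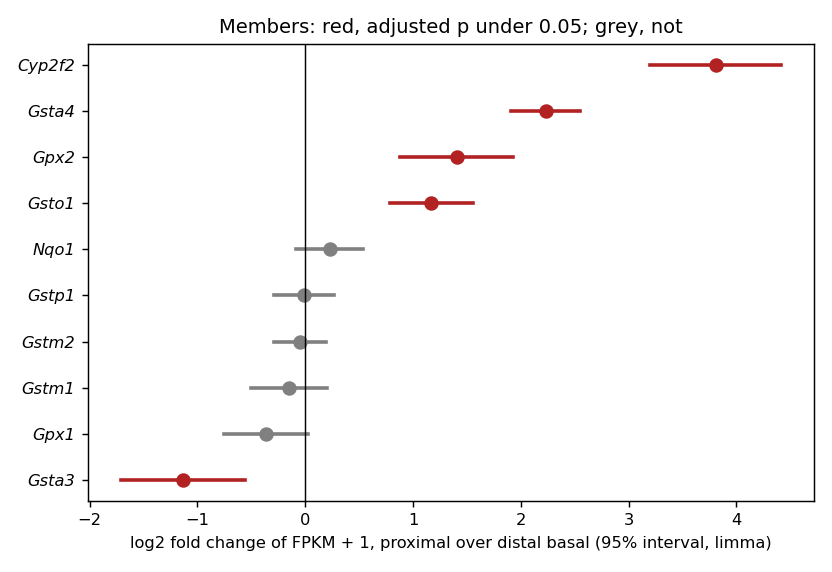
Log2 fold change of FPKM + 1, proximal over distal basal cells, for each member with its 95% interval from limma; red marks an adjusted p under 0.05. The intervals of Cyp2f2, Gsta4, Gpx2 and Gsto1 lie above 0 and that of Gsta3 below it, and the other 5 cross 0.

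Gpx1 and Gpx2 are selenoenzymes, which carry selenocysteine at the active site, encoded by a TGA codon that elsewhere ends translation. The annotated codon is shown in capitals with 12 coding bases on each side, from GENCODE M21 on GRCm38, because these paralogs share the catalytic codon and differ in how they were expressed. It is codon 47 in Gpx1 (chr9:108339451-108339453) and codon 40 in Gpx2 (chr12:76795256-76795258), counted from the start codon. The stretches are identical at 21 of 27 bases.
Gpx1: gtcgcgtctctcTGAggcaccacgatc
Gpx2: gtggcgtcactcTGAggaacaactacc

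Gpx2, a peroxidase of gut and other epithelia, was at 13.8, 17.8 and 25.9 FPKM in the proximal and at 5.31, 6.12 and 7.93 FPKM in the distal libraries. The groups did not overlap, and the lowest proximal library was 1.73 times the highest distal one. The means were 19.2 ± 6.15 FPKM in proximal basal cells against 6.45 ± 1.34 in distal basal cells (SD, n = 3). Its log2 fold change was 1.41 ± 0.23 (± SE; limma adjusted p = 0.0114). The call was lost without proximal replicate 2 (adjusted p = 0.0520) or distal replicate 2 (adjusted p = 0.0567). Among the secretory markers Svs5, a seminal vesicle protein, was at 0.391, 107 and 239 FPKM in the proximal and at 0.325, 0.860 and 0.393 FPKM in the distal libraries. Proximal replicate 3 was the highest and proximal replicate 1 the lowest of the proximal group for Gpx2 and Svs5 alike, as for Svs2 and Pate4 of the same list. Pbsn, Msmb, Tgm4 and Defb50, the other tested markers of that list, did not share both traits. In the distal group Gpx2 was likewise highest in replicate 3 and lowest in replicate 1, whereas Svs5 was highest in replicate 2. A link between Gpx2 and these markers was not tested. Without proximal replicate 3 the log2 fold change of Gpx2 was 1.18 (limma adjusted p = 0.0253). A pseudogene, Gpx2-ps1, holds 18.9% of its 50-base words.

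Gpx1, the widespread cytosolic peroxidase, was at 1235, 987 and 1152 FPKM in the proximal and at 1761, 1278 and 1322 FPKM in the distal libraries. The groups did not overlap, but the gap was narrow, with the lowest distal library 1.04 times the highest proximal one. Its log2 fold change was -0.36 ± 0.17 (± SE; limma adjusted p = 0.240), and the 95% interval of the fold ran from 0.594 to 1.02. Without distal replicate 1 the log2 fold change was -0.22. Gpx2 made up 1.10%, 1.78% and 2.20% of the summed FPKM of both in the proximal and 0.301%, 0.476% and 0.596% in the distal libraries (exact permutation test, two-sided, p = 0.10, the smallest possible). Gpx1 thus remained by far the more abundant of the pair in each library.

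Nqo1, a quinone reductase and a common readout of NRF2, was near the filter. It stood at 1.43, 1.42 and 1.64 FPKM in the proximal and at 1.16, 1.23 and 1.02 FPKM in the distal libraries. The groups did not overlap, yet the deposited interval of each proximal library overlapped that of each distal library, as between 1.02 and 1.84 FPKM in proximal replicate 1 and between 0.764 and 1.55 FPKM in distal replicate 1. Its log2 fold change was 0.23 ± 0.13 (± SE; limma adjusted p = 0.346). It was 0.37 with a pseudocount of 0.1 FPKM and 0.36 with each library rescaled to a sum of 1000000, which raises the values against the pseudocount of 1.

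In both groups the library numbered 1 stood apart for the members. Cyp2f2, Gsta3, Gsta4, Gsto1, Gstm1 and Gpx1, 6 of the 10, were highest in replicate 1 of the proximal and of the distal group, and Gpx2 was lowest in both. The same 6 and the same 1 were found after each library was rescaled to the same sum. Replicate 1 also stood apart over all genes tested. On the second principal component, the second largest axis of variation (25.4%), proximal and distal replicate 1 lay at 23.085 and 22.687. The other libraries lay between -15.082 and -5.761. The share of all genes highest or lowest in both libraries numbered 1 was not counted, so the counts of members cannot be set against it. Without both libraries numbered 1, again 4 members were higher and 1 was lower. The log2 fold change was then 3.59 for Cyp2f2, 2.25 for Gsta4, 1.24 for Gsto1, 1.5 for Gpx2 and -1.36 for Gsta3 (limma, adjusted p from 0.000257 to 0.00643).

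The related genes of the pathway were read from lists that likewise were chosen with earlier results known. Counting each gene once, 138 of 190 were tested, 7 were higher and 5 lower, and 126 missed the threshold. This is 8.70% called, near the 7.02% of all genes tested. Their median log2 fold change was -0.03, against -0.01 over all genes tested.

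None of the 13 other transferases tested passed (limma), with a median of -0.14, and 1 had an unadjusted p under 0.05, against 24.0% of all genes tested. Mgst1, a microsomal transferase, was at 145 ± 29.6 FPKM in proximal basal cells against 150 ± 26.9 in distal basal cells (SD, n = 3), and the prostaglandin E synthase Ptges was at 171 ± 35.0 FPKM in proximal basal cells against 155 ± 9.72 in distal basal cells. None of the 14 other peroxidases, dismutases and catalase tested passed either (limma), with a median of -0.24. At an unadjusted p under 0.05 there were 7 of them, 2 higher and 5 lower, where all genes tested gave 12.1% higher and 11.9% lower. Among them Prdx6, a peroxiredoxin that also repairs phospholipids, was at 155 ± 12.7 FPKM in proximal basal cells against 185 ± 1.85 in distal basal cells (SD, n = 3). Prdx1, another peroxiredoxin, was at 154 ± 23.9 FPKM in proximal basal cells against 157 ± 34.5 in distal basal cells.

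Of 22 tested genes of glutathione synthesis, reduction and export, 1 was higher and 1 was lower (9.09% called, against 7.02% of all genes tested). Their median was 0.30, and 18 had a positive log2 fold change (81.8%, against 48.5% of all genes tested). Ggct, which breaks down gamma-glutamyl dipeptides, fell to 16.5 ± 0.553 FPKM in proximal cells, against 29.1 ± 4.66 FPKM in distal cells (mean ± SD, n = 3; limma adjusted p = 0.0119). Esd, which hydrolyses S-formylglutathione, was higher at 37.3, 45.9 and 64.4 FPKM in the proximal against 23.0, 24.1 and 28.9 FPKM in the distal libraries (limma, adjusted p = 0.0326). The call of Ggct was lost without proximal replicate 2, and Ggct was not among the genes tested with closely matched transcripts only. The call of Esd was lost on leaving out any library but proximal replicate 1 and with no filter on low values. Gclm, the modifier subunit of the first synthetic enzyme, was matched to no single gene and is not given.

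Among 23 other tested targets of NRF2, 3 were higher and 20 missed the threshold, none being lower, with a median of 0.12. This is 13% called, against 7.02% of all genes tested. Pgd, an NADPH-producing enzyme of the pentose phosphate pathway, was at 32.2, 36.8 and 39.9 FPKM in the proximal and at 18.8, 18.6 and 19.0 FPKM in the distal libraries. Its log2 fold change was 0.91 ± 0.11 (± SE; limma adjusted p = 0.00322). Hmox1, which degrades haem, was at 59.2, 50.2 and 68.3 FPKM in the proximal and at 28.1, 29.9 and 39.4 FPKM in the distal libraries (limma, adjusted p = 0.0204). Me1, the cytosolic malic enzyme, was at 10.3 ± 0.840 FPKM in proximal basal cells against 6.29 ± 0.368 in distal basal cells (mean ± SD, n = 3; limma adjusted p = 0.0175). Without proximal replicate 3 or distal replicate 2 the calls of Hmox1 and Me1 were lost, that of Hmox1 also with no filter on low values and that of Me1 also without proximal replicate 2 or distal replicate 3.

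None of the 11 tested regulators of NRF2 passed (limma), and 2 had an unadjusted p under 0.05, both higher, against 12.1% of all genes tested. Sqstm1, an autophagy receptor that binds KEAP1, was at 713, 586 and 440 FPKM in the proximal and 415, 351 and 322 FPKM in the distal libraries (limma, adjusted p = 0.0820). Mafk, a small MAF partner of NRF2, was at 186 ± 36.0 FPKM in proximal basal cells against 220 ± 4.52 in distal basal cells (SD, n = 3). In the thioredoxin system 1 of 13 tested genes was lower and none was higher (7.69% called, against 7.02% of all genes tested). It was Msrb2, a methionine sulfoxide reductase, at 0.786 ± 0.156 FPKM in proximal basal cells against 1.84 ± 0.266 in distal basal cells (mean ± SD, n = 3; limma adjusted p = 0.0364), a call lost without proximal replicate 2 or 3 or distal replicate 2 or 3 and with no filter on low values. Msrb2 passed the filter of a mean of 1 FPKM only through the distal libraries.

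**Figure D5:**
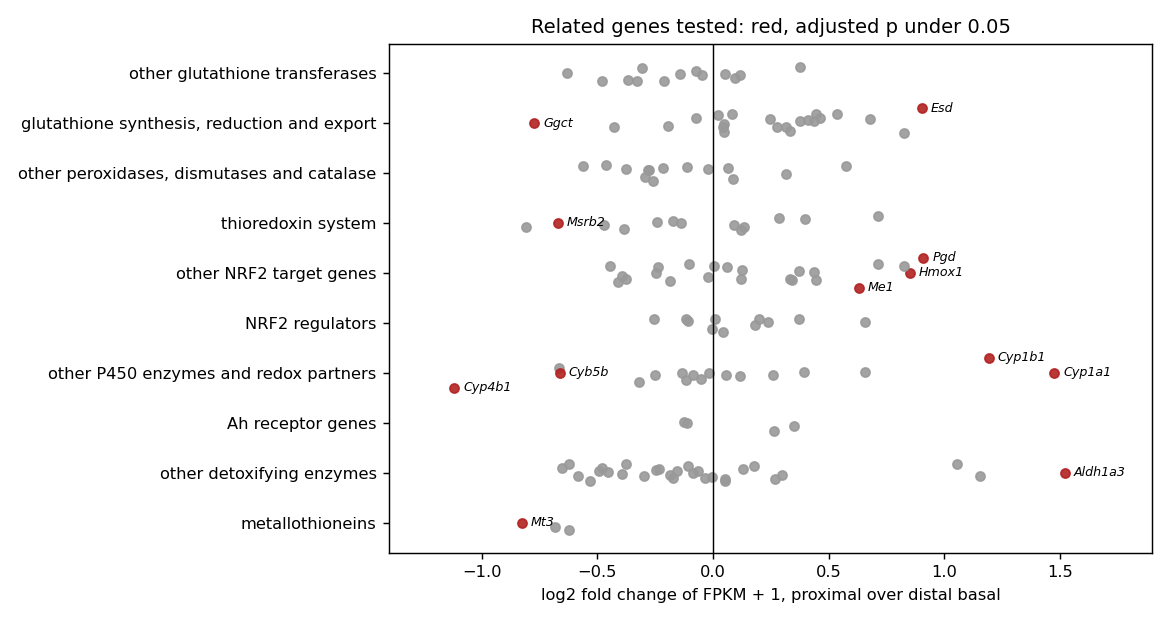
Log2 fold change of FPKM + 1, proximal over distal basal cells, of each tested gene of the related lists; red points passed at an adjusted p under 0.05 and are named, and a gene in more than 1 list appears in each. The 7 higher and 5 lower genes are spread over 6 lists, and most points lie near 0.

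Of 17 tested P450 enzymes and redox partners other than Cyp2f2, 2 were higher and 2 were lower (23.5% called, against 7.02% of all genes tested). Cyp1a1, a target of the Ah receptor that oxidises aromatic hydrocarbons, was at 3.27, 2.69 and 1.72 FPKM in the proximal and at 0.601, 0.154 and 0.0814 FPKM in the distal libraries (limma, log2 fold change 1.47 ± 0.23 SE, adjusted p = 0.00912). Cyp1b1, another target of that receptor, was at 3.15, 1.6 and 1.73 FPKM in the proximal and 0.486, 0.2 and 0.384 FPKM in the distal libraries (limma, adjusted p = 0.0155), a call lost without distal replicate 2 or 3. Both passed the filter of a mean of 1 FPKM only through the proximal libraries, so these calls are a description. The distal means were 0.279 FPKM for Cyp1a1 and 0.357 FPKM for Cyp1b1. Without proximal replicate 1, Cyp1b1 fell under that filter and was not tested. Proximal replicate 1 was the highest library for both genes, as it was for Cyp2f2.

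Cyp4b1, a P450 of extrahepatic epithelia, fell to 9.14 ± 2.24 FPKM in proximal cells, against 20.9 ± 3.89 FPKM in distal cells (mean ± SD, n = 3; limma adjusted p = 0.0130), a call lost without proximal replicate 2 or distal replicate 2. Cyb5b, an electron carrier of the outer mitochondrial membrane, fell to 19.1 ± 3.58 FPKM in proximal cells, against 30.6 ± 1.67 FPKM in distal cells (mean ± SD, n = 3; limma adjusted p = 0.0310). Its call was lost without proximal replicate 2 or 3 or distal replicate 2 or 3 and with no filter on low values. Cyp2f2 made up 80.3%, 73.0% and 68.7% of the summed FPKM of the listed P450 enzymes in the proximal and 20.1%, 14.1% and 15.7% in the distal libraries. None of the 4 tested genes of the Ah receptor list passed (limma), and 0 had an unadjusted p under 0.05. Ahr, the receptor, was at 51.7 ± 5.86 FPKM in proximal basal cells against 40.8 ± 8.65 in distal basal cells, and Tiparp, its target and inhibitor, at 72.2 ± 9.0 FPKM in proximal basal cells against 78.6 ± 4.97 in distal basal cells (SD, n = 3).

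Among 29 other detoxifying enzymes tested, 1 was higher (3.45% called, against 7.02% of all genes tested) and 28 did not pass, with a median of -0.16. It was Aldh1a3, a retinaldehyde dehydrogenase, at 26.1, 28.5 and 41.2 FPKM in the proximal and 6.71, 11 and 14.5 FPKM in the distal libraries (limma, log2 fold change 1.52 ± 0.27 SE, adjusted p = 0.0154). The call was lost without proximal replicate 2 or 3 or distal replicate 2 and with no filter on low values. Of 3 tested metallothioneins, which bind metals and scavenge radicals, 1 was lower (33.3% called, against 7.02% of all genes tested). Mt3 was at 2.62, 2.95 and 2.55 FPKM in the proximal and 5.27, 5.52 and 5.93 FPKM in the distal libraries (limma, adjusted p = 0.00758). The far more abundant Mt1, at 3790, 5514 and 6077 FPKM in the proximal and 7595, 7917 and 7742 FPKM in the distal libraries, did not pass (limma, adjusted p = 0.123).

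Markers of the labelled cells and of others were read over all libraries, and of all genes tested 4.52% were higher and 2.50% lower. The 14 basal markers summed to between 9599 and 9739 FPKM in the proximal and between 8113 and 9815 FPKM in the distal libraries, and 6 were higher and none lower. The most abundant, the keratins Krt15 and Krt14, stood between 3326 and 3836 FPKM and between 2121 and 2276 FPKM in the proximal libraries, and between 2037 and 2443 FPKM and between 2283 and 3397 FPKM in the distal libraries. Of 17 matched luminal markers 4 were higher and 2 lower, with sums between 3936 and 4202 FPKM in the proximal and between 2849 and 3715 FPKM in the distal libraries. The luminal keratins Krt18 and Krt8 were thus abundant in a sort labelled basal, between 1218 and 1373 FPKM and between 519 and 661 FPKM in the proximal libraries, and between 1076 and 1628 FPKM and between 474 and 643 FPKM in the distal libraries. Prostate secretory products summed to between 1066 and 1397 FPKM in the proximal and between 1692 and 2239 FPKM in the distal libraries, with 1 of 7 tested higher and 1 lower. The lower one, Defb50, was the largest part of each distal sum. It was at 444, 251 and 285 FPKM in the proximal and 1612, 1252 and 1169 FPKM in the distal libraries. Pbsn, the next most abundant, lay the other way, at 408, 403 and 412 FPKM in the proximal and 366, 263 and 286 FPKM in the distal libraries, and did not pass. Urothelial markers summed to 32.5, 20.5 and 18.5 FPKM in the proximal and 19.5, 16.8 and 18.6 FPKM in the distal libraries, with 1 of 3 tested higher, 1 lower and Upk3a listed at 0 throughout, and proximal replicate 1 was again the highest. Endothelial markers, 4 of 7 higher, summed to between 20 and 29.1 FPKM in the proximal and between 2.95 and 13.0 FPKM in the distal libraries.

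Of the tested fibroblast markers 5 of 8 were higher. Their sum, between 707 and 778 FPKM in the proximal and between 778 and 819 FPKM in the distal libraries, was mostly Dcn, a matrix proteoglycan. Without Dcn the sum was between 66.5 and 74.3 FPKM in the proximal and between 29.6 and 40.6 FPKM in the distal libraries. Nerve and glia markers, 3 of 5 higher, summed to between 91.7 and 116 FPKM in the proximal and between 73.2 and 77.7 FPKM in the distal libraries. No tested marker of smooth muscle (7), leukocytes (3) or erythroid cells (3) passed, and neither did any of 6 mitochondrial transcripts (limma). Immediate early genes summed to between 6902 and 8804 FPKM in the proximal libraries, and to 9574 FPKM in distal replicate 1 and 17124 and 17858 FPKM in distal replicates 2 and 3, with 2 of 14 lower and none higher. The part of these cell types and of dissociation in the values of the members was not tested.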

How the data were processed

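RNA was measured in 3 proximal and 3 distal basal libraries. Per the submitters' processing notes, the tools were bcl2fastq 1.8.3, TopHat and Cufflinks and the build was mm10. Per the file headers, each deposited table lists FPKM for 63241 transcripts with interval bounds in FPKM and a status. The deposited coverage signal is not scaled to depth and was not compared. No status of the 13 member transcripts was other than OK. Members and lists were chosen with earlier results of these data known. The transcript annotation used is unnamed in these sources, so transcripts were matched by span and spliced length to GENCODE M21 (GRCm38, the assembly of mm10). Of them, 49609 matched closely (span overlap multiplied by length ratio, 0.5 or more, other genes below 0.8 of it) and 3714 by exons, with 93.9% of the FPKM. FPKM was summed per gene, and log2(FPKM + 1) of genes averaging 1 FPKM or more was tested with limma 3.58.1 (R 4.3.3, lmFit, eBayes with trend, no covariates, two-sided). Depth was derived from the interval widths of transcripts over 3000 bases that overlap no other. The matching and the test were tested on simulated data. Named are all members, up to 4 called genes of each related list by p (with none called, the 2 highest) and the 5 genes most like Cyp2f2; of each marker list the counts, of most the sum and, for 3 lists, 1 or 2 of the highest genes are given, and 1 result is not reported here. Psca, Nupr1, Svs5, Svs2, Pate4, Pbsn, Msmb, Tgm4, Defb50, Dcn, Gsto2, Mt1, Upk3a and Gm15883 were named after their values were seen. So were Krt7, Ly6d, Clu, Wfdc2 and Ppp1r1b. The alternatives tried were the pseudocount, filters, scalings, closer matching, the variance trend, a replicate block, libraries left out and summed paralogs.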

Additional observations from a re-analysis of the deposited data

How the results depend on the processing

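Cyp2f2, Gsta4 and Gsto1 kept their direction and call under all 15 alternatives, with log2 fold changes from 3.49 to 4.06, from 2.14 to 2.37 and from 1.07 to 1.31. Gpx2 kept its call under 13 of 15 and Gsta3 under 10 of 16. Among those 10 is the sum of Gsta3 with its paralogs Gsta1 and Gsta2, which leaves out Gsta4 (limma adjusted p = 0.0459). Leaving out 1 library gave 3 to 4 members higher and 0 to 1 lower, 202 to 533 genes higher and 46 to 622 lower, and 2 to 12 related genes higher and 1 to 17 lower. Lower genes numbered 622 when distal replicate 1 was left out, 548 when proximal replicate 1 was, and 46 to 74 when any other library was. With neither library numbered 1, 908 genes rose and 1385 fell, and 19 related genes were higher and 28 lower. With no filter on low values 137 genes, 0 members and 3 related genes were lower. With a filter at 5 FPKM 273 genes were higher and 168 lower. With each library rescaled to a sum of 1000000, which also raises the values against the pseudocount and filter, 12 related genes were higher. The log2 fold change of Gstm2 turned to 0.016 on rescaling and 0.027 with neither library numbered 1, and ran from -0.10 to 0.026 on leaving out 1 library. That of Gstp1 turned to 0.054 on rescaling and 0.051 with neither library numbered 1, and ran from -0.12 to 0.062 on leaving out 1 library. None of these passed, and the causes were not tested. Of 300 counts over the related lists, 225 stayed within 1.5 times. Libraries of the same number deviated together with r = 0.383, 0.045 and 0.286 across genes, and those of different numbers with r from -0.370 to 0.160. The labels do not say what a number stands for, so the numbers were not taken as pairs in the main test. What libraries of the same number share was not tested. With the number as a replicate block, 880 genes were higher and 732 lower, 21 related genes were higher and 18 lower, and 4 members were higher and 1 lower. Nqo1 is the member nearest the filter on low values, and what depth limits was not tested.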
